A study of Microtus ochrogaster with 40 samples.

Results

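The dopamine receptor genes DRD1A (ENSMOCG00000017186), DRD2 (ENSMOCG00000013394) and Drd3 (ENSMOCG00000008878) were followed in single nuclei of the prairie vole nucleus accumbens. These 3 members were taken by name from the 19130 genes of the deposited matrices, and all 3 passed the low-count filter over all nuclei. In RefSeq's annotation of assembly MicOch1.0 they match Drd1, Drd2 and Drd3. The series holds 40 libraries of the 10X Genomics droplet method, each from the nuclei of 1 vole (Microtus ochrogaster), a rodent studied for its lasting pair bonds. Each vole had lived for 16 days with a mate, which here is a partner of the opposite sex, or with a peer, which is a partner of the same sex. There were 11 females and 11 males with a mate (called female mate and male mate), and 8 females and 10 males with a peer (female peer and male peer). The labels give no strain, age or transgene and do not name partners, so animals that shared a cage may not be independent samples. All groups were paired, so none stands for a vole housed alone.

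Dopamine receptors are G protein-coupled receptors. The D1 receptor raises cyclic AMP through the stimulatory G protein of the striatum, whereas the D2 and D3 receptors couple to inhibitory G proteins. In the accumbens the D1 and D2 receptors are known for dividing the medium spiny neurons, its GABA-releasing output cells, into D1 cells with the peptides of Tac1 and Pdyn and D2 cells with the enkephalin of Penk. The D3 receptor is enriched in the ventral striatum and is known for the granule cells of the islands of Calleja. In voles, dopamine signalling in the accumbens has been studied for its part in forming and keeping a pair bond.

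After filters on depth and mitochondrial reads and removal of called doublets, 178387 nuclei were kept, with 1767 to 7666 per library. Libraries held 2922980 to 13431071 UMIs (unique molecular identifiers, 1 per captured RNA molecule), with a median per nucleus of 657 to 2182.5. Male mate 2 stood apart, with the lowest depth. Pairing differences averaged over the sexes were also computed without it where the receptor passed the count filter. Drd3 in eccentric-like nuclei did not pass it then. DRD2 in eccentric-like nuclei and DRD2 and Drd3 in cluster 2 did not pass it with or without that animal. Differences within 1 sex and interactions were not computed without male mate 2. Pairs of libraries had at most 2.22% of the smaller library's barcode sequences in common (median 0.771%). Nuclei were clustered without the 3 receptors, and clusters were named from marker lists that hold none of them. The result was 28161 D1, 27412 D2 and 10175 eccentric medium spiny neuron-like nuclei, the last named by Otof, Foxp2 and other markers of a less common kind of spiny neuron. Levels are given in CPM, the UMIs of a gene per 1000000 UMIs of the population in an animal with at least 20 of its nuclei.

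DRD1A was high in several neuron populations. In D1-like nuclei the level per animal had a lowest value of 781 CPM, a median of 958 CPM and a highest value of 1166 CPM (955 ± 98.6, SD, n = 40). In eccentric-like nuclei it lay between 764 and 1207 CPM around a median of 947 CPM (948 ± 107, n = 40), so that the ranges of these populations overlapped almost whole. An unnamed cluster led by Dlk1, Ush1c and Arhgap36 (cluster 2, with 2099 nuclei) had a median of 780 CPM over 35 animals and a range of 369 to 1043 CPM. Its best list was that of D1 spiny neurons, but general medium spiny neuron genes were not above those of the other nuclei. At a finer clustering, and with the receptors kept in the clustering, a cluster led by Dlk1 and Ush1c was named D1 medium spiny neuron-like. Below the D1-like, eccentric-like and cluster 2 levels came a pair of unnamed clusters, leaving aside the small cluster 28 described with DRD2. Cluster 17, with 4808 nuclei and Foxp2 and Pcdh8 among its leading genes, had a median of 393 CPM and a lowest value of 186 CPM in 39 animals. Cluster 4, a shallow cluster of 9294 nuclei, had a median of 323 CPM and a lowest value of 206 CPM in 40 animals. Among the named classes, the somatostatin interneuron-like nuclei, local inhibitory cells with Sst and Npy, had a median of 182 CPM and a lowest value of 94.0 CPM in 31 animals. The median was 87.6 CPM in other GABA neuron-like nuclei and 59.2 CPM in glutamate neuron-like nuclei. Over all animals the glutamate clusters ran from 38.7 CPM in cluster 6 to 123 CPM in cluster 26, with 92.1 CPM in the large shallow cluster 3. In D2-like nuclei DRD1A lay between 12.2 and 47.7 CPM with a median of 25.3 CPM, below the lowest D1-like animal in each of the 40. In non-neuronal nuclei the median was 19.5 CPM in astrocyte-like, 18.2 CPM in oligodendrocyte-like, 29.5 CPM in microglia-like and 85.5 CPM in vascular-like nuclei. The D2-like level therefore stood within the span of these medians, and the ranges overlapped.

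DRD2 was high in D2-like nuclei, in cholinergic interneurons, in the shallow unnamed cluster 4 and in the small unnamed cluster 28. Its level in D2-like nuclei ran from 237 to 493 CPM with a median of 352 CPM (354 ± 59.2, SD, n = 40). Cholinergic interneuron-like nuclei, the acetylcholine-releasing local cells with Chat and Slc5a7, had a median of 117 CPM and a range of 67.8 to 396 CPM over the 25 animals with enough of them. Cluster 4 had a median of 203 CPM and a range of 45.1 to 351 CPM over 40 animals. Cluster 28, with 146 nuclei, held oligodendrocyte genes together with medium spiny neuron genes and so went unnamed. Over all animals it had 173 CPM of DRD2 and 612 CPM of DRD1A, and 1 of its nuclei held both. Male mate 2 gave 32.9% of these nuclei, and only 2 animals had at least 20. All 25 cholinergic values lay above the medians of every non-neuronal class. In D1-like nuclei the DRD2 level had a median of 7.59 CPM and a highest value of 55.3 CPM, which was male mate 2, and 1 animal had none. The eccentric-like median was 9.05 CPM. Medians in the 5 non-neuronal classes lay between 7.21 CPM in microglia-like and 13.0 CPM in oligodendrocyte-like nuclei, so DRD2 in these DRD1A-rich classes stood within their span.

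**Figure D1:**
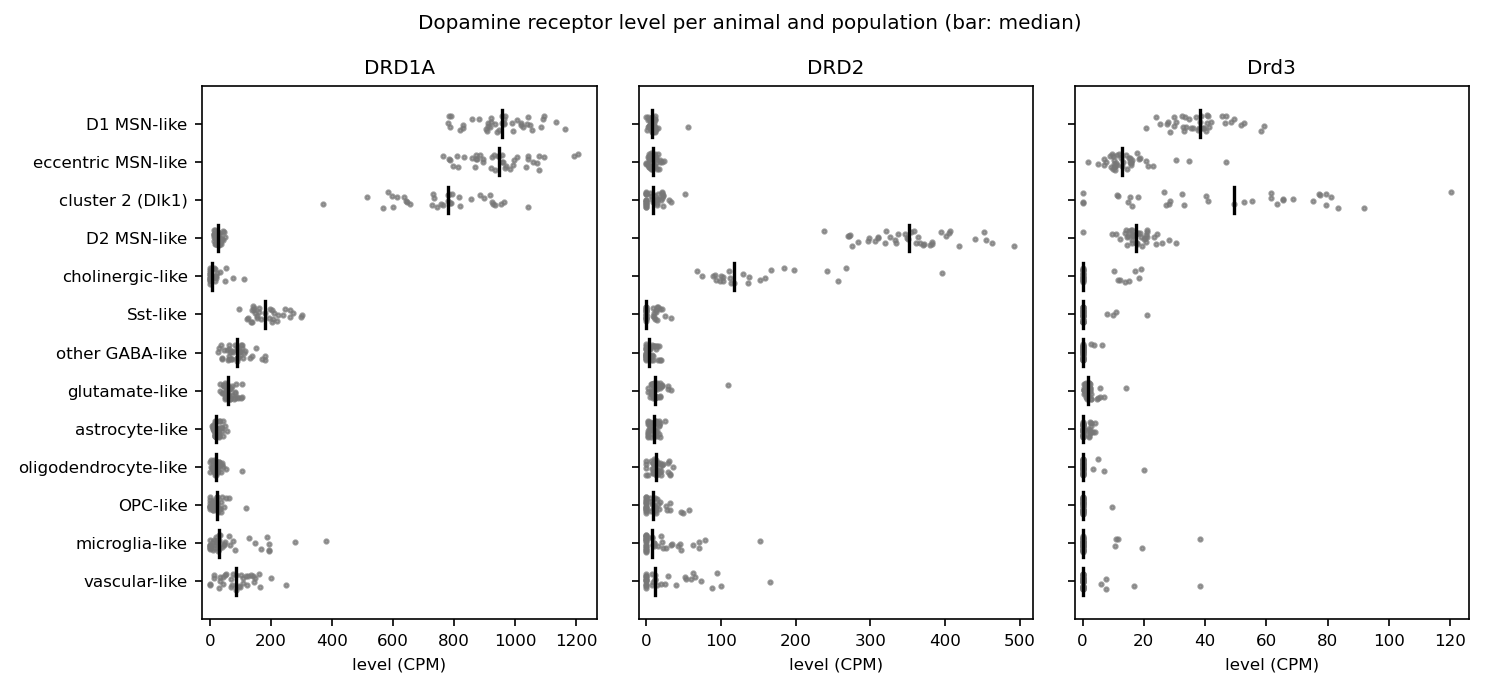
Level of DRD1A, DRD2 and Drd3 (x axis, CPM, a separate scale for each gene) in each population (y axis); a point is 1 animal with at least 20 nuclei and the bar is the median. DRD1A is high in D1, eccentric and cluster 2 nuclei, DRD2 in D2 and cholinergic nuclei, and Drd3 in D1 nuclei and cluster 2. Clusters 4, 17 and 28 are not plotted.

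Drd3 was found at low counts, 4778 UMIs in all, and cut across the division between D1 and D2. In D1-like nuclei its level ran from 20.6 to 59.2 CPM with a median of 38.2 CPM (38.2 ± 8.87, SD, n = 40). In D2-like nuclei the median was 17.6 CPM (17.9 ± 5.22, n = 40), with a highest value of 30.7 CPM and none in male mate 2. Eccentric-like nuclei had a median of 12.8 CPM and a range of 1.93 to 46.9 CPM. The ranges of these classes overlapped. Drd3 was close to 0 in glia, with 15 UMIs in 17931 astrocyte-like nuclei (1.00 CPM) and 5 UMIs in 12089 oligodendrocyte-like nuclei (0.516 CPM).

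Drd3 also differed between clusters of 1 class. Among D1-like nuclei, the cluster led by Col24a1 and Hcrtr2 (cluster 1, with 8120 nuclei) had a median of 48.7 CPM and the cluster led by Reln and Pdyn (cluster 0, with 18200 nuclei) 33.0 CPM, with overlapping ranges of 20.3 to 89.4 and 16.5 to 57.8 CPM. Among D2-like nuclei, the Adora2a-led cluster 9 had a median of 21.0 CPM. The Cpne7-led cluster 8 held 13 Drd3 UMIs in 4718 nuclei (1.23 CPM over all animals), and 27 of its 40 animals had none. DRD2 did not follow this split, with medians of 344 CPM in cluster 9 and 383 CPM in cluster 8. Cluster 2, with Dlk1 and Wfs1, had the highest Drd3 level over all its nuclei, 52.5 CPM, from 213 UMIs, close to the 51.1 CPM of cluster 1. By the mean over animals the order turned, with 47.2 CPM in cluster 2 (n = 35) and 50.0 CPM in cluster 1 (n = 40). Because the clusters were drawn on the same nuclei, these differences are given without a test.

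**Figure D2:**
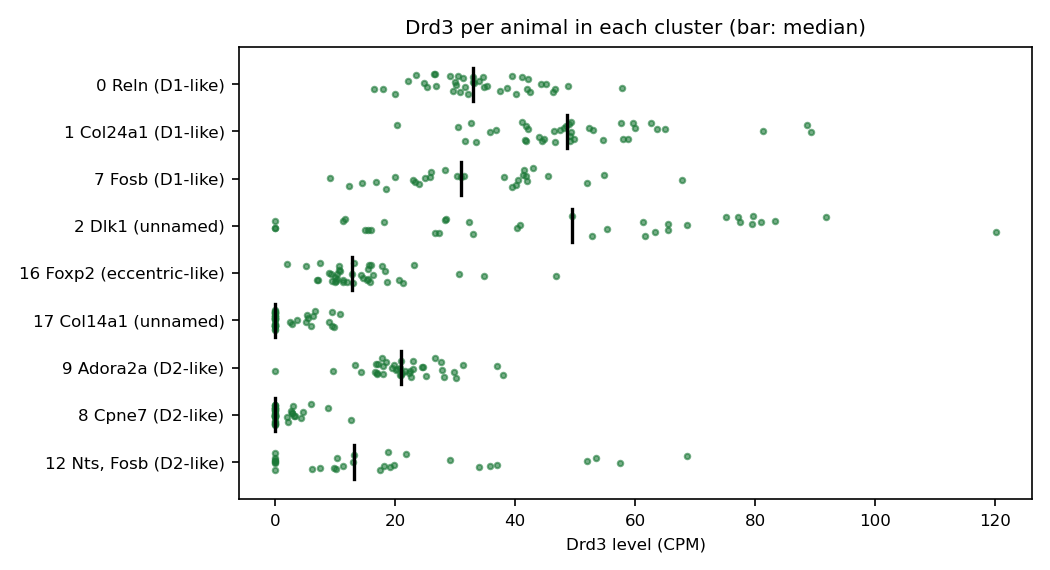
Drd3 level (x axis, CPM) per animal with at least 20 nuclei in each cluster of medium spiny neurons or related neurons (y axis, cluster number, a leading gene and the name given); the bar is the median. Medians are highest in clusters 1 and 2 and at 0 in clusters 8 and 17.

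A finer clustering placed the highest Drd3 level elsewhere. It split off 580 shallow nuclei led by Krt15 and Prok2, with a median of 677.5 UMIs, which had 214 CPM of Drd3, 358 CPM of DRD1A and 2.12 CPM of DRD2. Of these nuclei, 97.9% came from cluster 4, an unnamed shallow cluster that takes 20.1% of its nuclei from male mate 2. That cluster mixes DRD1A (349 CPM), DRD2 (199 CPM) and Drd3 (38.9 CPM). Only 7 animals gave at least 20 of the 580 nuclei, with Drd3 between 143 CPM in male peer 2 and 366 CPM in female mate 7, from 3 to 28 UMIs each. Male mate 7 gave 23.8% of them, and without that animal the level was 197 CPM. These 7 animals are fewer than the 6 a group set as the minimum here, and no pairing test was run.

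The genes whose levels were most like those of each receptor over the 28 clusters of at least 50 nuclei were found among 13332 genes reaching 10 CPM in a cluster, by Pearson's r of log2(CPM + 5). For DRD1A they were Slc35d3 (r = 0.90), the prodynorphin gene Pdyn (0.89), the muscarinic receptor Chrm4 (0.79), the tachykinin gene Tac1 (0.78) and the somatostatin receptor Sstr4 (0.76). For DRD2 they were the adenosine receptor Adora2a (r = 0.89), the orphan receptor Gpr6 (0.85), Fig4 (0.84), Upb1 (0.83) and the orphan receptor Gpr52 (0.82). For Drd3 they were Rtp2 (r = 0.96), the carbonic anhydrase Car12 (0.93), Wfs1 (0.92), the retinol dehydrogenase Rdh10 (0.91) and Wdr95 (0.90). Between the receptors r was 0.71 for DRD1A and Drd3, 0.29 for DRD2 and Drd3, and -0.20 for DRD1A and DRD2. The clusters share libraries and differ in depth, and Pdyn, Chrm4, Tac1, Adora2a, Gpr6 and Gpr52 were on the lists that named the classes, so these values are descriptions.

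Per nucleus, at its own depth, 84.1% of D1-like nuclei held a DRD1A UMI and 1.75% a DRD2 UMI. Of D2-like nuclei, 50.9% held DRD2 and 4.30% held DRD1A. Eccentric-like nuclei held DRD1A in 78.4% and DRD2 in 1.59%. Drd3 was seen in 8.32% of D1-like, 3.89% of D2-like and 2.70% of eccentric-like nuclei. In the 40985 nuclei of 5 non-neuronal classes (astrocyte, oligodendrocyte, oligodendrocyte precursor, microglia and vascular), the shares were 1.98% for DRD1A, 0.991% for DRD2 and 0.0756% for Drd3. Depth differed, with medians of 2159 UMIs in D1-like, 2059 in D2-like, 1867 in eccentric-like and 738 in non-neuronal nuclei.

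To set the classes at 1 depth, each nucleus of at least 1000 UMIs was thinned to 1000 by the exact chance of keeping each UMI, which left out 541 D1-like, 453 D2-like, 612 eccentric-like and 33187 non-neuronal nuclei. The thinned shares were 60.7% for DRD1A and 0.797% for DRD2 in D1-like nuclei, and 28.9% for DRD2 and 2.15% for DRD1A in D2-like nuclei. The 7798 of 40985 non-neuronal nuclei that were deep enough gave 2.71% for DRD1A and 1.44% for DRD2. All non-neuronal nuclei gave only 1.98% and 0.991% before thinning, although thinning can only lower detection in a nucleus. Pooled over classes, the deep non-neuronal nuclei thus held each receptor more often than the rest. The class mix changed too, with vascular-like nuclei making 844 of the 7798 and 1586 of the 40985. The thinned DRD1A share was below the unthinned in oligodendrocyte-like (1.23% and 1.36%) and vascular-like nuclei (6.99% and 8.39%). For DRD2 this held in vascular-like nuclei alone (2.44% and 3.40%), and the other classes had higher thinned shares. The non-neuronal classes differed: DRD1A was seen in 1.23% of oligodendrocyte-like, 1.89% of oligodendrocyte precursor-like, 2.24% of astrocyte-like, 6.99% of vascular-like and 10.6% of microglia-like nuclei, the last from 259 nuclei. At a finer clustering, 163 nuclei led by Mrc1 and Aif1 held 96 DRD1A UMIs (438 CPM) and 21 DRD2 UMIs (95.7 CPM). They were left unnamed because they also held medium spiny neuron genes, and male mate 2 gave 24.5% of them. A separate cluster of 4375 microglia-like nuclei held 80 DRD1A UMIs (27.7 CPM). The 2.15% of D2-like nuclei lay between the precursor-like and the astrocyte-like value. DRD2 was seen in 1.10% to 2.98% of the deep nuclei of these 5 classes, above the 0.797% of D1-like nuclei. By CPM over nuclei of any kept depth, the D1-like median of DRD2 lay within the span of the non-neuronal medians. No test of these differences was run.

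In D1- and D2-like nuclei, Drd3 was found together with the receptor of the class at close to the product of the single shares. In D1-like nuclei, 2008 held DRD1A and Drd3, and the thinned share of 2.31% stands beside a product of the single shares of 2.34%. In D2-like nuclei, 573 held DRD2 and Drd3, with a thinned share of 0.529% beside a product of 0.530%. Other pairs lay further from the product. Drd3 with DRD1A in D2-like nuclei had 0.0551% beside 0.0395% (60 nuclei before thinning). Drd3 with DRD2 in D1-like nuclei had 0.0249% beside 0.0308% (46 nuclei). Over all nuclei, which mix the classes, Drd3 with DRD1A had 0.711% beside 0.401%. All 3 receptors were seen together in 83 of the 178387 nuclei.

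Nuclei with both DRD1A and DRD2 numbered 1373 of 178387 (0.770%, 95% Wilson interval 0.730% to 0.811%, counting error only). D1-like nuclei held 370 of them (1.31% of the class), D2-like nuclei 585 (2.13%) and eccentric-like nuclei 100 (0.983%). Among the 7608 barcodes called as doublets, which were removed, 339 held both (4.46%). After thinning to 1000 UMIs, the share per animal had a median of 0.350% in D1-like nuclei (highest 0.600%), 0.425% in D2-like nuclei (0.100% to 0.935%) and 0.296% in eccentric-like nuclei (highest 0.832%), over 39 animals. Male mate 2, which lacked enough non-neuronal nuclei of that depth for the comparison with an expected rate, had 3.60% of 40 D1-like nuclei and 0 of 24 D2-like nuclei.

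The rate expected from free RNA and doublets was set for each library. It was the share of a class with its own receptor, times the share of non-neuronal nuclei with the other receptor plus an assumed doublet rate (0.8% per 1000 barcodes) times the share of all nuclei with the other receptor. In eccentric-like nuclei the terms for DRD1A and for DRD2 as own receptor were summed. In D1-like nuclei the observed share was 0.330% ± 0.149 (SD, n = 39) and the expected share 1.24% ± 0.851, of which free RNA made 1.06% and doublets 0.175%. In D2-like nuclei it was 0.484% ± 0.238 against 1.22% ± 0.708, and in eccentric-like nuclei 0.301% ± 0.218 against 1.24% ± 0.818. Observed minus expected was -0.905, -0.734 and -0.940 percentage points, and 3, 2 and 5 of 39 animals lay above the expected rate. In D1- and eccentric-like nuclei the mean expected share was above the whole share of nuclei with DRD2 (0.714% and 0.789%), which double positives cannot exceed. The non-neuronal reference held DRD2 in 1.78% and DRD1A in 3.36% of nuclei per animal, and the latter was above the 2.01% of D2-like nuclei with DRD1A. How much of the other receptor the reference held can thus set the sign, and all differences between observed and expected shares are given as descriptions, with no test. The product of the single shares within a class, which uses no reference, was 0.429% in D1-like, 0.579% in D2-like and 0.471% in eccentric-like nuclei, closer to the observed shares. Called doublets had been removed from the observed nuclei while the expected rate kept its full doublet term.

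The difference depended on how free RNA was read. Without thinning, a setting added after these values were seen, all 40 animals entered, and shallow glia (median 738 UMIs) were the reference for deeper neurons. The D2-like share was then 2.21% ± 0.818 (SD, n = 40) against an expected 1.56% ± 0.626, higher by 0.646 percentage points and above expectation in 31 of 40 animals. The D1-like share, 1.24% against 1.22%, differed by 0.022 points, with 22 of 40 animals above, and the eccentric-like share by -0.146 points, with 19 above. A reference of deep neurons, also added afterwards, used the 19888 glutamate neuron-like nuclei of 3 clusters with a median of 2700.5 UMIs. It gave -0.078 points in D1-like and -1.16 points in D2-like nuclei of 39 animals at 1000 UMIs. Male mate 2 was now among them, in place of another animal that lacked enough reference nuclei. The difference in eccentric-like nuclei was -0.226 points, over 38 animals without either. Leaving out male mate 2, also chosen after the values were seen, gave -0.163 points in D1-like and -1.13 points in D2-like nuclei. Without thinning, and with male mate 2 kept, this reference gave -0.527, -5.05 and -0.843 points in D1-, D2- and eccentric-like nuclei of 39 animals. The expected D2-like share of 7.24% was above the 4.30% of D2-like nuclei with any DRD1A. These glutamate nuclei themselves held DRD1A in 4.84% at 1000 UMIs and DRD2 in 0.5259%. With oligodendrocyte-like nuclei alone as reference, the D2-like difference was -0.131 points. These comparisons do not show whether double-positive nuclei were more or fewer than free RNA and doublets would give. In D2-like nuclei the sign turned without thinning, a setting that changed the depth of the class, the depth of the reference and the animals included together.

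**Figure D3:**
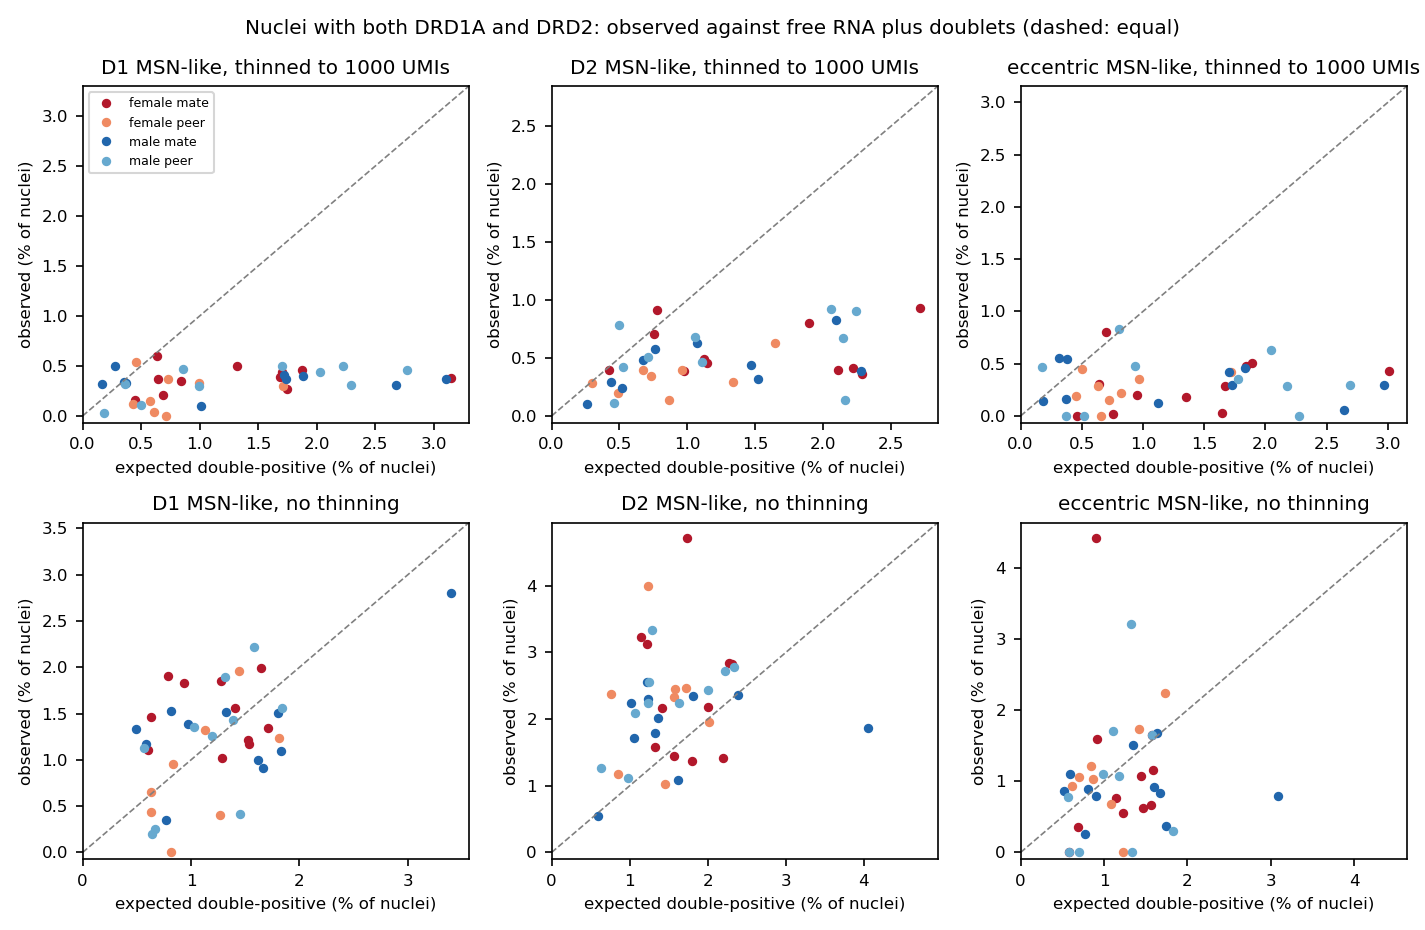
Observed share of nuclei with both DRD1A and DRD2 (y axis, % of the class) against the share expected from free RNA in non-neuronal nuclei plus doublets (x axis, %), a point per animal coloured by group, with the dashed line where they are equal. At 1000 UMIs (top) most of 39 animals lie below the line in all 3 classes, and without thinning (bottom) 31 of 40 lie above it in D2-like nuclei.

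Double-positive nuclei were deeper than those with the class's own receptor alone and held markers of the other class more often. Among D1-like nuclei of at least 1000 UMIs, the 369 with both receptors had a median of 2721 UMIs and a mean doublet score of 0.337, against 2253 UMIs and 0.233 in the 23044 with DRD1A alone. Adora2a, a D2-cell receptor, was held by 6.94% of the former and 0.992% of the latter at 1000 UMIs. The D1-cell peptide Tac1 was held by 74.9% and 74.0%. The 118 D1-like nuclei with DRD2 alone held Adora2a in 9.18% and the D2-cell receptor Gpr6 in 15.9%, against 6.94% and 9.32% in the double positives. Among D2-like nuclei, the 581 with both had a median of 2678 UMIs against 2240 in the 13259 with DRD2 alone, and held the D1-cell peptides Tac1 in 24.2% against 13.8% and Pdyn in 4.14% against 0.894%. The 582 D2-like nuclei with DRD1A alone, with a median of 2074 UMIs, held Tac1 in 27.7% and Pdyn in 4.92%, so neither share was higher in the double positives than in these. Depth raises the chance of seeing any pair of genes, and its part in these differences was not tested. Across the 39 libraries, the share expected from free RNA and the observed share had r = 0.37 in D2-like nuclei (Spearman's rho 0.36). The unadjusted permutation p-values were 0.0217 and 0.0225. In D1-like nuclei r was 0.30 (rho 0.27; unadjusted permutation p = 0.0588 and 0.0965). These were among 6 relations computed, and others of the 6, given below, had a positive outcome built in. Those would lower p-values adjusted over all 6, so no adjusted p is given and no relation is called. Without the 2 animals farthest from the median, r was 0.40 and 0.31. Both measures hold the share of the class's own receptor, so these p-values do not test free RNA alone.

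The design asks whether receptor levels differ between animals living with a mate and with a peer. No receptor passed the test in any population. Over all nuclei, DRD1A had a median of 302 CPM (lowest 237, highest 394) in female mate, 305 (212 to 463) in female peer, 313 (219 to 435) in male mate and 320 CPM (197 to 433) in male peer animals. These ranges overlapped almost entirely, and the difference between mate and peer averaged over the sexes was a log2 fold change of 0.02 (SE 0.11, adjusted p = 0.967, edgeR's quasi-likelihood test with Benjamini-Hochberg adjustment over 13705 genes). DRD2 had medians of 90.2 CPM (56.8 to 114) in female mate, 63.3 CPM (41.8 to 102) in female peer, 84.5 CPM (44.7 to 96.0) in male mate and 79.7 CPM (38.6 to 139) in male peer animals. Its log2 fold change was 0.18 (SE 0.14, adjusted p = 0.758, edgeR). Drd3 had medians of 14.6, 13.5, 14.5 and 12.0 CPM in the same order, ranges of 12.0 to 20.8, 7.50 to 16.6, 8.20 to 23.9 and 6.16 to 21.8 CPM, and a log2 fold change of 0.17 (SE 0.13, adjusted p = 0.759, edgeR). As background, 0% of the 13705 genes were called for pairing by edgeR, although 943 (6.88%) had an unadjusted p under 0.05. The count from DESeq2 was 0 as well.

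Within each class the receptor of that class did not pass the test either. DRD1A in D1-like nuclei had medians of 912 CPM (781 to 1086) in female mate, 952 CPM (829.5 to 1166) in female peer, 941 CPM (783 to 1056) in male mate and 1013 CPM (786 to 1134) in male peer animals, with a log2 fold change of -0.09 (SE 0.06, adjusted p = 0.975, edgeR). In eccentric-like nuclei it was -0.09 (SE 0.06, adjusted p = 0.999, edgeR). DRD2 in D2-like nuclei had medians of 349 CPM (273 to 493), 345 CPM (237 to 395), 358 CPM (276 to 455) and 365 CPM (270 to 463) in the same order of groups, and a log2 fold change of 0.03 (SE 0.08, adjusted p near 1, edgeR). Groups overlapped in each case. Called genes made 0% of 10638 tested in D1-like, of 10497 in D2-like and of 8819 in eccentric-like nuclei. There were 481 (4.52%), 439 (4.18%) and 417 (4.73%) with an unadjusted p under 0.05. The counts from DESeq2 were 0, 0 and 1.

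**Figure D4:**
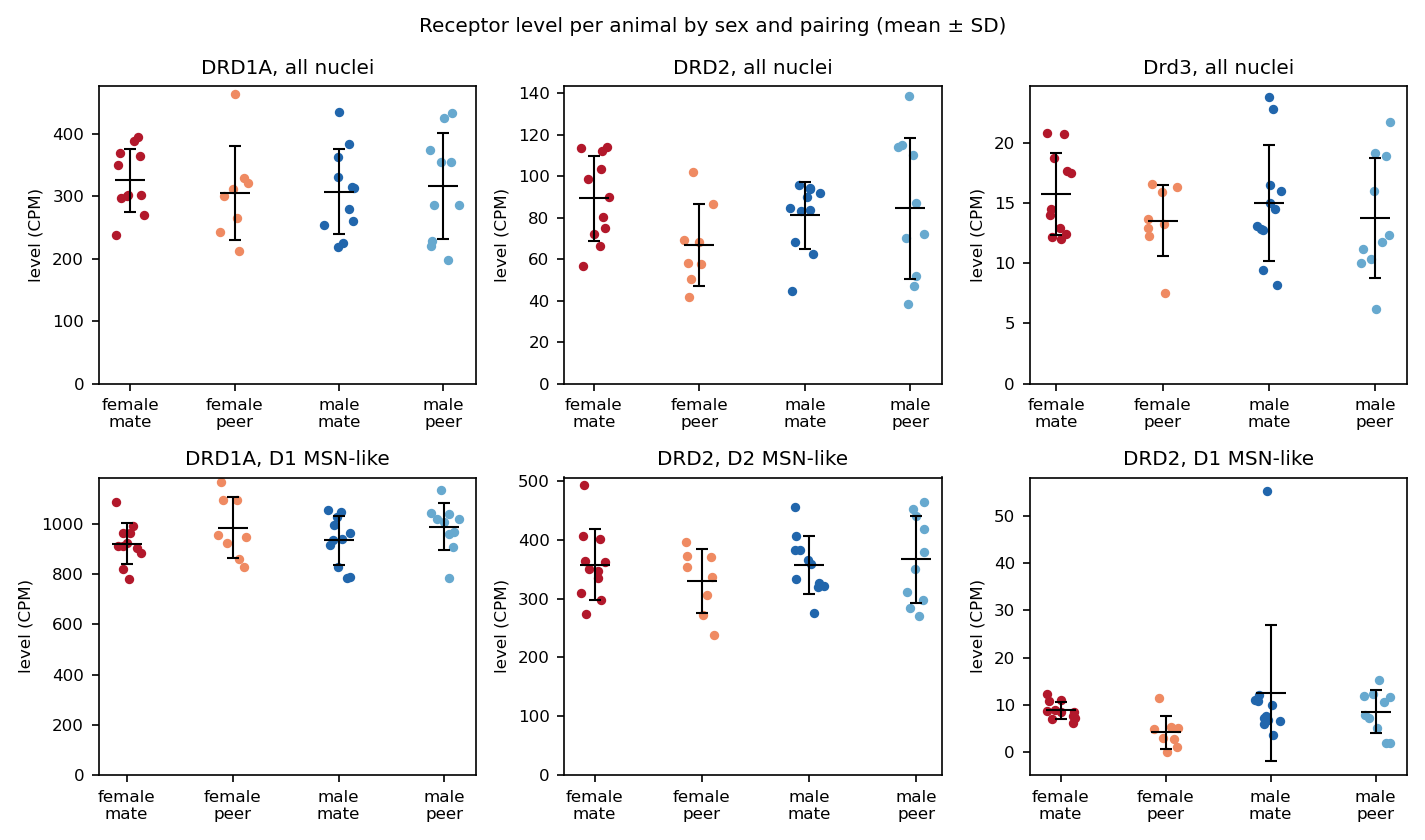
Receptor levels (y axis, CPM) per animal in the 4 groups of sex and pairing (x axis), over all nuclei (top) and within D1- or D2-like nuclei (bottom); lines are the mean and SD of 11, 8, 11 and 10 animals. The groups overlap in every panel, and in the panel of DRD2 in D1-like nuclei male mate 2 stands at 55.3 CPM.

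Among receptors that passed the count filter, the lowest unadjusted p-values belonged to DRD2 in females. Over all nuclei, female mate minus female peer was 0.42 on the log2 scale (SE 0.20, unadjusted p = 0.0396, adjusted p = 0.639, edgeR), and male mate minus male peer was -0.07 (SE 0.19). The interaction, which tests whether these differ, was 0.50 (SE 0.27, unadjusted p = 0.0746, adjusted p near 1). The share of D2-like nuclei was 16.9% ± 3.76 (SD, n = 11) in female mate and 12.7% ± 4.80 (SD, n = 8) in female peer animals, and DRD2 within D2-like nuclei differed by 0.12 (SE 0.11) in females. The D1-like share differed likewise, at 17.4% ± 3.93 and 13.3% ± 4.42, while DRD1A over all nuclei differed by 0.10 (SE 0.15) in females. The part of the class shares in the DRD2 difference was not tested. In D1-like nuclei, where DRD2 was as low as in non-neuronal nuclei, the difference over both sexes was 0.42 (SE 0.23, unadjusted p = 0.0726, adjusted p = 0.975, edgeR). Its unadjusted p lay between 0.0399 and 0.209 over the alternatives, and no adjusted p passed. The male difference was 0.0050 (SE 0.35) and the interaction 0.83 (SE 0.46, unadjusted p = 0.0754). The female difference was 0.84 (SE 0.34, unadjusted p = 0.0185, adjusted p = 0.834, edgeR), with medians of 8.54 CPM (6.21 to 12.4) in female mate and 3.94 CPM (0 to 11.4) in female peer animals. Of 32 dopamine list genes tested in D1-like nuclei, 1 had an unadjusted p under 0.05 in females, beside 629 of all 10638 genes (5.91%). It was the enkephalin gene Penk of D2 cells (0.52, SE 0.25, unadjusted p = 0.0429, adjusted p = 0.834, edgeR). The other D2-cell markers of the list differed by 0.18 (Adora2a, SE 0.21), 0.28 (Gpr52, SE 0.22) and -0.11 (Gpr6, SE 0.25). The part of free RNA in the DRD2 difference was not tested.

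Drd3 within classes gave no call. The log2 fold change for mate minus peer was 0.02 (SE 0.10) in D1-like, 0.0037 (SE 0.11) in D2-like and 0.32 (SE 0.21, unadjusted p = 0.139, edgeR) in eccentric-like nuclei. In the last it was 0.57 in males (SE 0.29, unadjusted p = 0.0556, edgeR) and 0.06 in females (SE 0.30), with an interaction of -0.51 (SE 0.42, unadjusted p = 0.233). The highest male mate value, 46.9 CPM, was the shallow male mate 2. In cluster 2, Drd3 had medians of 62.5 CPM in 10 female mate, 36.6 CPM in 6 female peer, 49.5 CPM in 11 male mate and 22.8 CPM in 8 male peer animals, from 21 to 84 UMIs a group. Its ranges overlapped widely, from 26.7 to 91.8, 11.6 to 83.4, 0 to 120 and 0 to 65.4 CPM in that order. It was too low there for the count filter, and without the filter the difference was 0.75 (SE 0.25, unadjusted p = 0.00311, adjusted p = 0.871, edgeR over 14458 genes). For DRD1A in that cluster the log2 fold change was 0.02 (SE 0.10). As background, 5 of the 14458 genes in the unfiltered fit of cluster 2 were called, and Drd3 was not among the 5. With the filter, 0% of its 3922 genes were called, with 155 (3.95%) at an unadjusted p under 0.05. Between the sexes no receptor that passed the count filter was called in the populations tested. Of all genes, edgeR called 0.0219% over all nuclei, 0.0282% in D1-like, 0.0191% in D2-like and 0.0113% in eccentric-like nuclei and 0.0255% in cluster 2.

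The balance of DRD1A to DRD2 was read as the log2 ratio of their UMIs over all nuclei of an animal. It had medians of 1.91 (1.53 to 2.18) in female mate, 2.20 (1.62 to 2.66) in female peer, 2.03 (1.32 to 2.29) in male mate and 2.00 (1.62 to 2.35) in male peer animals, all overlapping. Mate minus peer averaged over the sexes was -0.19 (p = 0.0546, permutation test within sex, two-sided; adjusted p = 0.215 over 5 tests). The double-positive share among all spiny neuron-like nuclei at 1000 UMIs had medians of 0.447%, 0.271%, 0.368% and 0.500% in the same order, and mate minus peer was 0.130 percentage points (p = 0.129, permutation test; adjusted p = 0.215). Without male mate 2, whose share was 2.00%, that difference was 0.057 points (p = 0.249, permutation test). Within D1-like nuclei it was 0.219 points (p = 0.0945, permutation test; adjusted p = 0.215) and 0.071 points without male mate 2 (p = 0.147). Without thinning it was 0.390 points (unadjusted p = 0.0393, permutation test). The differences were 0.032 points in D2-like and 0.004 points in eccentric-like nuclei (p = 0.691 and 0.959, permutation tests).

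The level of each receptor over all nuclei correlated with an animal's share of spiny neurons. The share of D1, D2 and eccentric spiny neuron-like nuclei correlated over the 40 animals with DRD1A (r = 0.82, rho 0.86), DRD2 (r = 0.69, rho 0.76) and Drd3 (r = 0.59, rho 0.62). D1-like nuclei held 65220 of the 104224 DRD1A UMIs and 2521 of the 4778 Drd3 UMIs, and D2-like nuclei 22385 of the 27159 DRD2 UMIs. A positive relation with the share of these classes was therefore built into the levels, and its permutation p-values are not reported. Without male mate 2 and male peer 8, the 2 animals farthest from the median share, r was 0.82, 0.80 and 0.58. By contrast DRD1A in D1-like nuclei and DRD2 in D2-like nuclei had r = 0.29 over the animals, and r = 0.28 without the 2 farthest. Spearman's rho was 0.30 (unadjusted permutation p = 0.0717 for r and 0.0633 for rho). In all-nuclei sums, fewer nuclei of a type and less RNA per nucleus cannot be told apart.

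**Figure D5:**
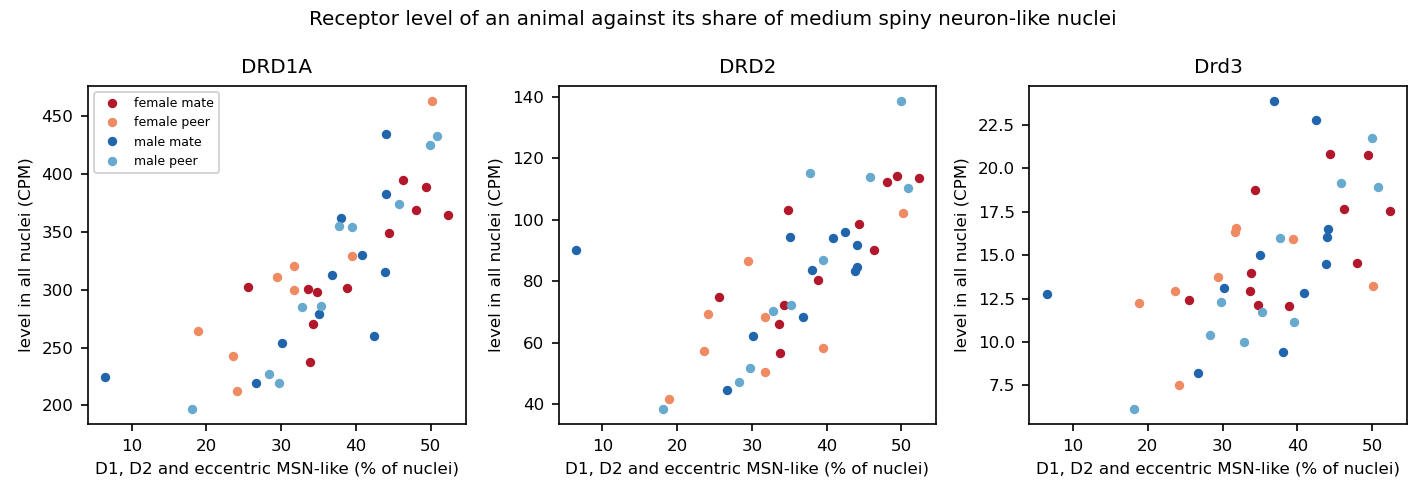
Level of each receptor over all nuclei of an animal (y axis, CPM) against the share of its nuclei in the D1, D2 and eccentric spiny neuron-like classes (x axis, %), coloured by group. Levels rise with the share for all 3 receptors (r = 0.82, 0.69 and 0.59), and male mate 2 is the point at the lowest share.

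Other genes of the dopamine pathway were read from a list of 46 names, of which 37 were matched in the files. The other dopamine receptors were near 0, with Drd4 at 2.20 CPM and Drd5 at 0.885 CPM over all nuclei, and so, named after their values were seen, were the dopamine-making enzyme gene TH (0.806 CPM) and the dopamine transporter Slc6a3 (1.47 CPM), which belong to dopamine neurons whose bodies lie outside the accumbens. Of 29 list genes at 10 CPM or more in D1- or D2-like nuclei, 3 were more than 2-fold higher in D1-like nuclei and 4 in D2-like nuclei, on the log2(CPM + 5) scale. All 7 were markers used in naming the classes, so this is no finding. By level, the largest differences towards D1-like nuclei were in Tac1 (1983 against 273 CPM), Pdyn (618 against 13.4), the cyclase gene Adcy5 (2340.3 against 1940.2) and Chrm4 (163 against 11.6). Towards D2-like nuclei, large differences were in Penk (6034 against 141 CPM), Gpr6 (1126 against 59.9) and Adora2a (974 against 12.7). Genes of the shared cascade, picked here after their values were seen, had close levels in D1- and D2-like nuclei, such as the G protein gene Gnal (1671 and 1703 CPM), Ppp1r1b, which encodes DARPP-32 (1647 and 1520), and Pde10a (453 and 450). None of the 37 list genes was called for pairing over all nuclei (edgeR, 1 at an unadjusted p under 0.05), with a median log2 fold change of 0.06 beside -0.01 for all 13705 genes tested. Among the lowest p-values were those of Gpr52 (log2 fold change 0.25, SE 0.10, unadjusted p = 0.0205) and Maoa (-0.23, unadjusted p = 0.0516), each at an adjusted p of 0.709.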

How the data were processed

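Nuclei of the accumbens were measured in 40 voles. Per the submitters' processing notes, UMI counts per gene and barcode were made with Cell Ranger 3.1.0, and the raw counts were deposited for 194518 barcodes and 19130 genes. The genome build, annotation and alignment settings are not given in the sources used here. Barcodes under 500 UMIs (6375) or over 5% mitochondrial UMIs (2148 more) were left out, and 7608 of the other 185995 (4.09%) were called as doublets by a score against simulated doublets, at an assumed 0.8% per 1000 barcodes left after these filters. Clustering used 2000 variable genes without the receptors, 30 components, 15 neighbours and Leiden resolution 1 (python-igraph 0.11.9, leidenalg 0.10.2, scikit-learn 1.9.0), and gave 30 clusters. A name needed at least 3 listed markers at a log2 fold of 1 or more, and these naming thresholds were set after the clusters were seen and before any group was compared. Counts were summed per animal and population (at least 20 nuclei, at least 6 animals a group) and tested with edgeR 4.0.16 (quasi-likelihood, R 4.3.3) in a model of the 4 groups, with Benjamini-Hochberg adjustment at 0.05. The labels do not say which animals shared a cage, so p-values treat all animals as independent. Shares and ratios were tested by 100000 permutations (scipy 1.17.1, numpy 2.4.6). The planned permutation test of observed against expected double positives was run but is not reported, because the reference could fix its sign. Statistical steps were tested on simulated data. Library depth ranged from 2922980 to 13431071 UMIs, and intervals cover counting error only. The members and gene lists were chosen with earlier results of these data known. Besides the receptors, the text names the 5 genes most like each receptor, every listed dopamine gene called for pairing or else the 3 of lowest p, the 4 list genes with the largest level difference in each direction between D1- and D2-like nuclei, and the other dopamine receptors. Some genes that this rule names are not reported here. Alternatives were DESeq2 1.42.0, no count filter, blocks of 10 label numbers, doublets kept, nuclei of at least 1000 UMIs, resolution 2, receptors kept in the clustering, male mate 2 left out, other thinning depths and other references for free RNA. The unthinned comparison with the expected rate and the deep glutamate neuron reference, with and without male mate 2, were added after the data were seen.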

Additional observations from a re-analysis of the deposited data

Results flagged for a closer look

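In 4 of the 44 groups of 4 to 10 animals that were tested, 1 animal stood apart from the rest of its group by Dixon's criterion, which chance meets in about 1 of 20 groups. Groups of 11 animals were not tested, which left out most quantities of the female mate and male mate groups. Among those left out was DRD2 in D1-like nuclei of male mate animals, where male mate 2 stood at 55.3 CPM. The quantities share animals and UMIs, so the groups are not independent and the rate of 1 of 20 is no measure for the 4. In all 4 the animal was female peer 5, at the high end. Its share of double-positive spiny neuron-like nuclei was 0.5682%, with the next animal at 0.341% and a group median of 0.271%. Its DRD1A level over all nuclei was 462.8 CPM, with the next at 329 CPM and a median of 305 CPM. DRD2 in its D1-like nuclei was 11.4 CPM, with the next at 5.26 CPM and a median of 3.94 CPM. DRD2 in its cluster 2 nuclei was 21.4 CPM, with the next at 6.95 CPM and a median of 0 among 6 animals. That group held 5 DRD2 UMIs in all, and 4 of its animals had none.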

How the results depend on the processing

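Under the alternatives, 172 recomputed values kept their direction and their side of the threshold, 9 changed sign, 3 passed it newly, 3 no longer passed it and 2 counts moved. The 3 that passed newly did so by an unadjusted permutation p. No pairing difference had passed before, and the 3 that no longer passed were all observed minus expected double-positive shares. Their test is not reported because the reference could fix its sign. Such values are also in the other counts, so the tally is no measure of stability. No paired analysis was possible because the labels give no replicate numbers shared between the groups. With blocks of 10 label numbers, the mate minus peer log2 fold change turned to -0.024 for DRD1A in D2-like nuclei, -0.029 for Drd3 in D1-like nuclei and -0.023 for Drd3 in D2-like nuclei, none of them called before or after. With the receptors kept in the clustering, the cluster of highest Drd3 level was another one, and DRD1A there had -0.10. Genes called for pairing rose from 0 to 5 in cluster 2 without the count filter and from 0 to 1 in eccentric-like nuclei with DESeq2. Without thinning, the mate minus peer double-positive share was 0.390 points in D1-like (permutation p = 0.0393), -0.081 in D2-like and -0.0072 in eccentric-like nuclei, and at 1500 UMIs it was -0.013 in eccentric-like nuclei. The mate minus peer difference in the log2 ratio of DRD1A to DRD2 was -0.19 within spiny neuron-like nuclei (permutation p = 0.0484). In nuclei of at least 1000 UMIs that difference was -0.21 (permutation p = 0.0407), and both p-values are unadjusted. Observed minus expected double positives without thinning was 0.022 points in D1-like, 0.646 in D2-like and -0.146 in eccentric-like nuclei. It was -0.078 in D1-like nuclei with the deep glutamate reference and -0.131 in D2-like nuclei with the oligodendrocyte reference. Over all settings it ran from -2.65 to 0.022 points in D1-like, -5.05 to 0.646 in D2-like and -2.74 to -0.146 in eccentric-like nuclei. The receptor share of the reference can set the sign of these differences, so an unchanged sign says nothing about stability. Where no construction of the alternative shows it, the cause was not tested. Some planned settings were not run. The cluster of highest Drd3 level at resolution 2 had too few animals with 20 nuclei. DRD2 and Drd3 in cluster 2 and DRD2 in eccentric-like nuclei did not pass the count filter. Drd3 in eccentric-like nuclei did not pass it without male mate 2 or in nuclei of at least 1000 UMIs.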

Other observations

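Among the genes most like DRD2 over clusters, Gpr6 and Fig4 were next to each other in RefSeq's gene order of assembly MicOch1.0, with 0 genes between them, and Adora2a and Upb1 had 1 gene between them. These pairs were noticed after the likeness values were seen. Whether reads of neighbouring genes are shared in the counts was not tested.

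The ratio of DRD1A to DRD2 UMIs differed between non-neuronal classes. Over all nuclei there were 3.84 DRD1A UMIs per DRD2 UMI, beside 1.30 in oligodendrocyte-like, 1.79 in oligodendrocyte precursor-like, 2.50 in astrocyte-like, 2.99 in vascular-like and 3.70 in microglia-like nuclei. More DRD2 than DRD1A UMIs were found in 8 animals in oligodendrocyte-like, 10 in oligodendrocyte precursor-like, 4 each in microglia- and vascular-like and 3 in astrocyte-like nuclei.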
